A study of Danio rerio with 12 samples.

Results

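Sugar breakdown, sugar synthesis and the storage of sugar as glycogen were followed through 50 enzyme genes in whole zebrafish larvae exposed to bisphenol A (BPA), a plastics monomer that binds estrogen receptors weakly. Members were taken by gene symbol, and 47 of the 50 symbols had a row in the count table of 31540 genes. The other 3 symbols, pklr among them, had no row. All larvae were wild type, 5 days post fertilization (dpf), and kept from 2 to 5 dpf in water with 0.2% DMSO. The control group received DMSO alone, and the other 3 groups received BPA at 0.1, 1 and 4 mg/L. Each group had 3 poly-A RNA libraries, each from a pool of 10 whole larvae, and the labels do not say whether pools came from separate clutches or dishes. What the p-values measure is thus the spread from pool to pool, which may be technical.

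Glycolysis splits glucose into pyruvate in the cytosol and yields ATP without oxygen. Gluconeogenesis, mainly a task of liver and kidney, runs the pathway backwards through a few enzymes of its own, and glycogen synthase and glycogen phosphorylase fill and empty the sugar store. Many steps have separate genes for a muscle and a liver form, and the teleost genome duplication gave zebrafish a second copy of many of them. Fast skeletal muscle is rich in glycolytic enzymes, while the liver form of a step serves the supply of blood glucose. Before their values are given by role, the members fall into 13 muscle isoforms, 13 liver isoforms and gluconeogenesis genes with a row, 9 neural or other isoforms and 12 shared genes. This division follows the gene names as used in mammals.

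Total counts were 21.95 to 34.22 M per library, and the rarest member in any library still had 15 counts. All 47 members passed the filter on low counts. The libraries numbered 3 stood apart within their groups for part of the members. Over the 4 groups, pcxb, pck1, pck2, aldoca, hk1, gpia, pkma, eno1b, tpi1a, pygb, pgam1b and gapdhs were lowest in replicate 3 in 4 of 4 groups, whereas eno3, pgk1 and eno1a were lowest in replicate 1 in 4 of 4. Results are therefore also given from the libraries numbered 1 and 2. Levels below are CPM, the count of a gene scaled to the same total in each library, on TMM-scaled library sizes. They are not per length, so they are compared between libraries and never between genes.

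At 4 mg/L, 3 of the 47 members fell and 0 rose by the quasi-likelihood test of edgeR, with p-values adjusted after Benjamini and Hochberg across all tested genes (adjusted p under 0.05, here termed called). They were gpib, pfkma and pygma, which serve the second step of glycolysis, its committed step and the release of glucose units from glycogen. For comparison, 0.281% of all 22399 tested genes were called in this contrast, and 0.112% were called lower. Of the other tools run, limma-voom called 3 members, and 52 of all tested genes. DESeq2 called 12 members, and 483 of all tested genes against 63 in edgeR.

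gpib encodes a glucose-6-phosphate isomerase, which converts glucose 6-phosphate to fructose 6-phosphate. Its levels in controls 1, 2 and 3 were 56.1, 56.7 and 73.3 CPM. They were 61.5, 58.4 and 52.7 CPM at 0.1 mg/L, 56.9, 46.9 and 55.6 CPM at 1 mg/L, and 31.2, 29.9 and 30.5 CPM at 4 mg/L. The 3 libraries at 4 mg/L lay close together and below all 9 others, while the lower 2 doses overlapped the controls. The mean fell from 62 ± 9.79 to 30.5 ± 0.623 CPM (SD, n = 3), a 2.03-fold lower level (log2 fold change −1.02, SE 0.13, edgeR adjusted p = 0.0074). When single libraries were dropped in turn, gpib was called each time (12 of 12 fits, adjusted p 0.0064 to 0.04), but among the libraries numbered 1 and 2 alone the adjusted p was 0.065.

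pfkma encodes a muscle form of phosphofructokinase, the enzyme of the committed step. Control levels were 93.7, 105 and 114 CPM, against 99.9, 96 and 85.8 CPM at 0.1 mg/L, 94.2, 72.5 and 89.5 CPM at 1 mg/L and 51.6, 71.1 and 51.5 CPM at 4 mg/L. All libraries at 4 mg/L lay below all controls, and replicate 2 at 4 mg/L came close to replicate 2 at 1 mg/L. The level was 1.8-fold lower (log2 fold change −0.85, SE 0.16, edgeR adjusted p = 0.048). With single libraries dropped, pfkma was called in 3 of 12 fits, those without 1 mg/L replicate 2 or 3 or 4 mg/L replicate 2. Its adjusted p in the other fits ran from 0.061 without 0.1 mg/L replicate 3 to 0.22 without 4 mg/L replicate 1, and it was 0.19 from the libraries numbered 1 and 2.

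pygma encodes a muscle glycogen phosphorylase. Its control levels were 170, 182 and 219 CPM. They were 214, 175 and 146 CPM at 0.1 mg/L, 184, 158 and 175 CPM at 1 mg/L, and 88.7, 106 and 96.5 CPM at 4 mg/L, again with every library at 4 mg/L below the 9 others. The mean fell from 191 ± 25.5 to 97.1 ± 8.78 CPM (SD, n = 3; log2 fold change −0.97, SE 0.16, edgeR adjusted p = 0.028). With single libraries dropped it was called in 5 of 12 fits, and not when any control, any library at 4 mg/L or 0.1 mg/L replicate 2 was dropped. The highest adjusted p was 0.14, without 4 mg/L replicate 1, and it was 0.11 from the libraries numbered 1 and 2.

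A paralogue of each of these genes showed no such drop. Another paralogue of pfkma, the muscle form pfkmb, did lie lower (log2 fold change −0.70, edgeR adjusted p = 0.12). gpia, the other glucose-6-phosphate isomerase gene, stood at 157, 136 and 101 CPM in the controls and 180, 157 and 120 CPM at 4 mg/L (log2 fold change 0.22, SE 0.22, edgeR adjusted p = 0.69). The groups overlapped, with replicate 3 lowest in each. pfklb, a liver form of phosphofructokinase, was 38.9, 34.6 and 31.8 CPM in the controls and 39.6, 36.7 and 34.5 CPM at 4 mg/L (log2 fold change 0.07, SE 0.12, adjusted p = 0.82). pygl, the liver glycogen phosphorylase, was 38.8, 23.6 and 30.5 CPM in the controls and 93.8, 49.5 and 40.4 CPM at 4 mg/L (log2 fold change 0.98, SE 0.29, adjusted p = 0.2). For pygl every library at 4 mg/L lay above every control, but replicate 1 was far above the other two.

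**Figure D1:**
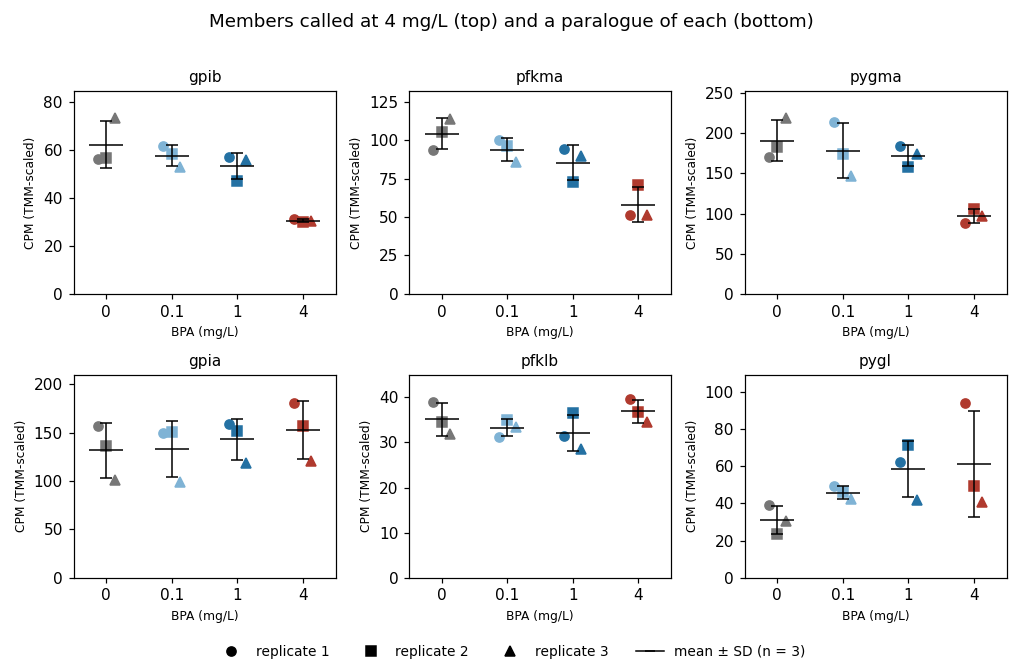
Level (CPM on TMM-scaled library sizes, linear axis from 0) of gpib, pfkma and pygma in the upper row and of gpia, pfklb and pygl in the lower row, against BPA dose in mg/L. Symbols are single libraries by replicate number, and black bars are mean ± SD (n = 3). The upper genes are lowest at 4 mg/L, at 30.5, 58.1 and 97.1 CPM on average, while gpia and pfklb overlap the controls at every dose.

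The ratio of the 2 counts within a library does not depend on how libraries are scaled. For gpib over gpia the log2 ratio was −1.48, −1.26 and −0.47 in the controls and −2.53, −2.39 and −1.98 at 4 mg/L, so the groups did not overlap. It averaged −1.07 ± 0.53, −1.19 ± 0.24, −1.42 ± 0.30 and −2.30 ± 0.29 from control to 4 mg/L (SD, n = 3). For pfkma over pfklb the log2 ratio was 1.27, 1.60 and 1.84 in the controls and 0.38, 0.95 and 0.58 at 4 mg/L, a mean difference of −0.93. In both pairs the lower 2 doses overlapped the controls.

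The glycogen phosphorylase pair differed from the pairs above in its dose pattern. Its log2 ratio of pygma over pygl was 2.13, 2.95 and 2.84 in the controls, 2.12, 1.93 and 1.79 at 0.1 mg/L, 1.57, 1.14 and 2.05 at 1 mg/L and −0.08, 1.1 and 1.25 at 4 mg/L. All libraries of each dose lay below all controls, with mean differences of −0.70, −1.05 and −1.88, although control 1 and 0.1 mg/L replicate 1 were nearly equal. At 0.1 and 1 mg/L the log2 fold changes were −0.10 and −0.15 for pygma, with overlapping groups, and 0.56 and 0.92 for pygl. The lower ratio at these doses thus came mostly from pygl. The glycogen synthase pair, gys1 of muscle over gys2 of liver, had log2 ratios of 2.12, 3.59 and 3.35 in the controls and 1.31, 1.55 and 2.00 at 4 mg/L. Its control libraries spread widely (SD 0.79), so that the mean difference of −1.40 was −1.12 without control 2 and −1.85 without control 1. Ratios of pfkmb over pfkla and of pgam2 over pgam1b were also lower in all 3 libraries at 4 mg/L than in any control, with mean differences of −0.86 and −1.15. The ratios of eno3 over eno1a, tpi1b over tpi1a, fbp2 over fbp1b, ldha over ldhba and hk2 over gck overlapped between 4 mg/L and control. At 0.1 and 1 mg/L, however, ldha over ldhba lay above all controls, with mean differences of 0.42 and 0.67. The ratio of fbp2 over fbp1b lay below all controls at 1 mg/L, with a mean difference of −0.46. These ratios are descriptions, and the difference between paralogues was not tested.

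**Figure D2:**
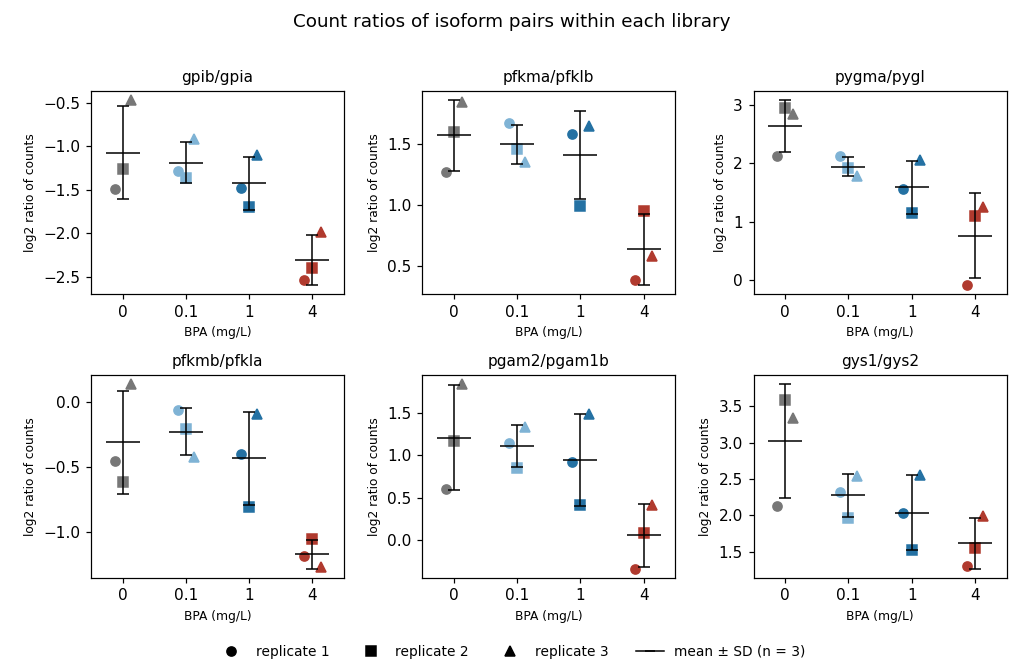
Log2 ratio of the counts of 2 genes within each library for 6 isoform pairs, against BPA dose in mg/L, with single libraries by replicate number and mean ± SD (n = 3) in black. In all 6 panels the libraries at 4 mg/L lie below the controls, and for pygma/pygl the lower doses do so too.

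Among the muscle isoforms, 9 of 13 lay below 0 at 4 mg/L (median log2 fold change −0.61). Over all tested genes 50.4% lay below 0 and the median was 0.00 (−0.0029). edgeR called 2 of the 13, pfkma and pygma, and 8 had an unadjusted p under 0.05. limma-voom called 2 and DESeq2 8, where DESeq2 called 483 of all 22399 tested genes. The median was −0.07 at 0.1 mg/L and −0.12 at 1 mg/L, doses at which edgeR, limma-voom and DESeq2 each called 0 of the 13, with 0 at an unadjusted p under 0.05 in edgeR. Without control 3 these medians were 0.07 and 0.02, and with single libraries dropped they ran from −0.17 to 0.07 and from −0.20 to 0.02, so their sign rests on that library. With the same libraries dropped the median at 4 mg/L ran from −0.74 to −0.44, and it was −0.43 from the libraries numbered 1 and 2. In these bulk samples fewer muscle cells and less RNA per cell cannot be told apart.

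pgam2, the muscle phosphoglycerate mutase, was 104, 126 and 180 CPM in the controls, 129, 127 and 135 CPM at 0.1 mg/L, 116, 96 and 147 CPM at 1 mg/L, and 52.1, 76.8 and 73.9 CPM at 4 mg/L. All libraries at 4 mg/L were below the 9 others, but the controls spread widely and the edgeR adjusted p was 0.081 (log2 fold change −1.02, SE 0.22). aldoab, a muscle aldolase gene, was 613, 725 and 915 CPM in the controls and 415, 517 and 545 CPM at 4 mg/L (log2 fold change −0.61, SE 0.18, adjusted p = 0.19). It is the enzyme that cuts the six-carbon sugar, and its level at 0.1 and 1 mg/L (719 ± 8.82 and 693 ± 88.1 CPM; SD, n = 3) lay within the range of the controls. eno3, the muscle enolase, was 728, 895 and 1165 CPM in the controls and 598, 713 and 772 CPM at 4 mg/L, and the groups overlapped (log2 fold change −0.42, SE 0.20, adjusted p = 0.42).

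The remaining muscle isoforms were not called by edgeR. pkmb, pfkmb, gys1 and aldoaa, which encode a pyruvate kinase, a phosphofructokinase, the muscle glycogen synthase and an aldolase, had log2 fold changes of −0.72, −0.70, −0.65 and −0.56 at 4 mg/L with adjusted p from 0.1 to 0.18. In each of them all 3 libraries at 4 mg/L lay below all controls. The other duplicates did not follow. pkma, the second copy of the muscle pyruvate kinase, was 183 ± 46.2 CPM in the controls and 226 ± 41 CPM at 4 mg/L (log2 fold change 0.31), and pygmb was 47.1 ± 15.7 and 63.1 ± 16.3 CPM (0.42). fbp2 and ldha, which encode a fructose bisphosphatase and the muscle lactate dehydrogenase, had log2 fold changes of 0.23 and 0.01. The 4 genes that were not below 0 all overlapped between the groups.

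**Figure D3:**
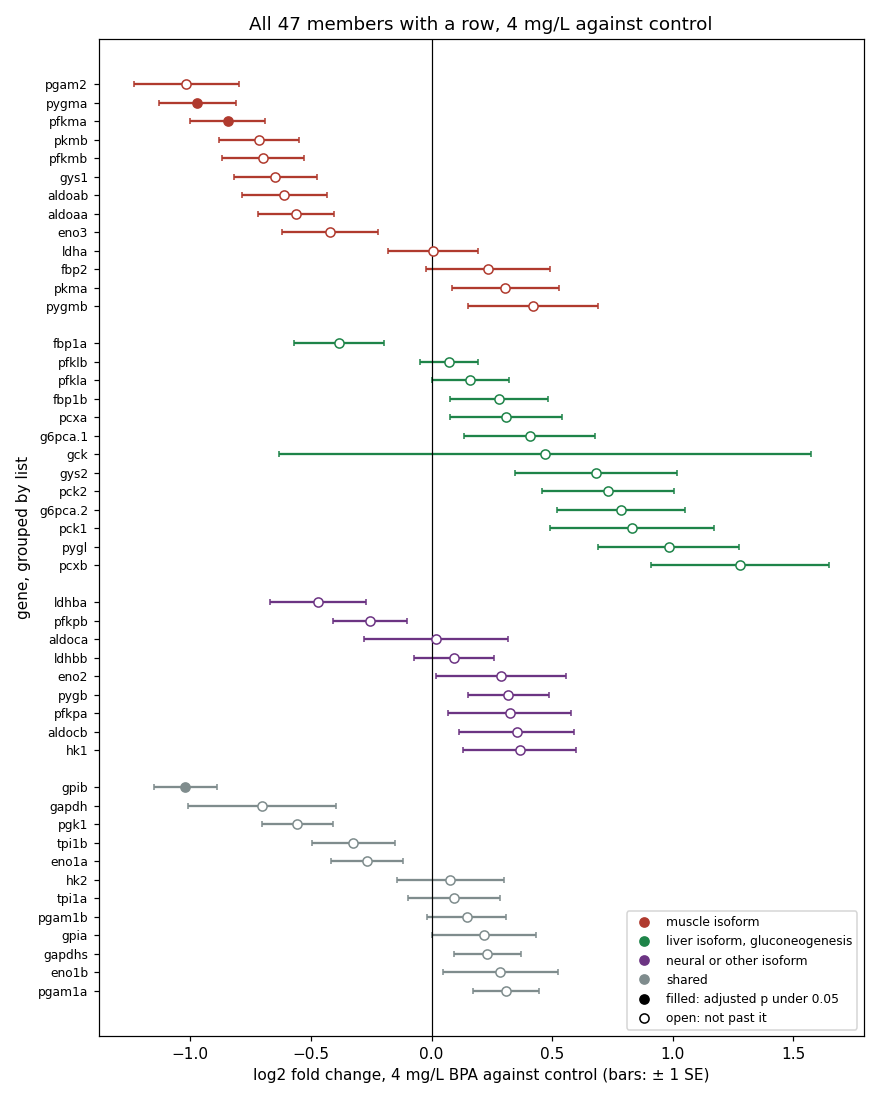
Log2 fold change at 4 mg/L against control for the 47 members, grouped by list and sorted within it, with bars of ± 1 SE from edgeR. Filled points are the 3 called genes, pygma, pfkma and gpib; of the muscle isoforms 9 of 13 lie below 0 and of the liver isoforms 12 of 13 lie above it.

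Over all members, 11 of 47 (23.4%) had every library at 4 mg/L below every control, where 8.91% of all tested genes did. They were 8 muscle isoforms, gpib, pgk1 and ldhba. 4 of 47 (8.51%) had every library above every control, against 8.23% of all tested genes, and these were pygl, pcxb, pck2 and gapdhs.

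The levels of skeletal muscle markers stand beside these values. The 24 markers include creatine kinase and calcium handling genes besides structural and contractile ones. Of these markers, 22 lay below 0 at 4 mg/L (median log2 fold change −0.41). edgeR called 0 of the 24 (8 at an unadjusted p under 0.05), limma-voom 0 and DESeq2 2. Their summed level ran from 101968 to 170317 CPM in the controls and from 78766 to 103788 CPM at 4 mg/L, ranges that overlap, and 0 of the markers was at 0 in any library. Relative to that sum within each library, gpib differed from control by −0.44 on the log2 scale at 4 mg/L (−11.09 ± 0.24 in the controls and −11.53 ± 0.22; SD, n = 3), pygma by −0.39 and pgam2 by −0.42, with groups that did not overlap. The same difference was −0.28 for pfkma, −0.12 for pkmb and −0.08 for gys1, with overlapping groups. For gpib the gap was narrow, with −11.28 in control 2 and −11.30 in 4 mg/L replicate 1. The gap was also narrow for pgam2, with −10.12 in control 2 and −10.20 in 4 mg/L replicate 2. In 0.1 mg/L replicate 3 the values of gpib and pygma were −11.45 and −9.98, within their ranges at 4 mg/L. The value of gpib in 1 mg/L replicate 3, −11.35, was within that range too. At 0.1 and 1 mg/L the mean ratio to the sum differed from control by at most 0.22 in any of the 6 genes. These 6 genes were not fixed in advance, and all had a log2 fold change below 0 at 4 mg/L. Of the muscle isoforms left out, pkma, pygmb, ldha and fbp2 had log2 fold changes above 0. The others left out, pfkmb, aldoaa, aldoab and eno3, had log2 fold changes of −0.70, −0.56, −0.61 and −0.42. No ratio to the sum was taken for any gene left out, so whether these fell relative to it is not shown.

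The liver isoforms and gluconeogenesis genes had a median of the opposite sign. At 4 mg/L, 12 of 13 lay above 0 (median log2 fold change 0.47), but edgeR called 0 of them (5 at an unadjusted p under 0.05), limma-voom 0 and DESeq2 2, pcxb and pygl. The medians at 0.1 and 1 mg/L were 0.49 and 0.69, with 10 and 11 of 13 above 0. With single libraries dropped they ran from 0.24, without 0.1 mg/L replicate 2, to 0.59 at 0.1 mg/L and from 0.57 to 0.75 at 1 mg/L. All 3 contrasts share the same controls. The median at 4 mg/L was 0.75 without control 1 and 0.31 in the lowest fit, and it was 0.75 from the libraries numbered 1 and 2.

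**Figure D4:**
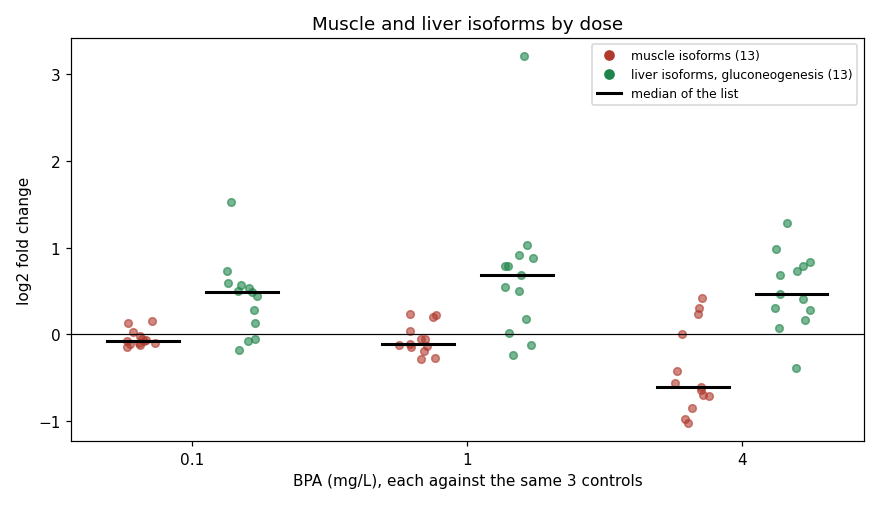
Log2 fold change against control of each muscle isoform and each liver isoform or gluconeogenesis gene at 0.1, 1 and 4 mg/L BPA, with the median of each list as a black line. All contrasts use the same 3 controls. The muscle median is −0.07, −0.12 and −0.61 (0.07 and 0.02 at the lower 2 doses without control 3). The liver median is 0.49, 0.69 and 0.47. The point above 3 is gck at 1 mg/L, where replicates 1 and 2 are above the controls and replicate 3 overlaps them.

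pcxb and pcxa encode pyruvate carboxylase, which makes oxaloacetate, the entry to gluconeogenesis. pcxb had the largest log2 fold change among the liver genes at 4 mg/L. Its levels were 29.4, 22 and 21.3 CPM in the controls, 30.9, 45.4 and 26.9 CPM at 0.1 mg/L, 53.3, 67.8 and 26.8 CPM at 1 mg/L, and 86.1, 58.7 and 31.7 CPM at 4 mg/L. Replicate 3 was lowest in every group, and at 4 mg/L it lay just above the highest control (log2 fold change 1.28, SE 0.37, edgeR adjusted p = 0.19). For pcxa the log2 fold change at 4 mg/L was 0.31 (adjusted p = 0.6).

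pck1 and pck2 encode the cytosolic and mitochondrial phosphoenolpyruvate carboxykinases, which carry the next step. pck1 stood at 166, 117 and 110 CPM in the controls, 139, 292 and 139 CPM at 0.1 mg/L, 260, 242 and 175 CPM at 1 mg/L, and 234, 326 and 138 CPM at 4 mg/L. The groups overlapped at 0.1 and 4 mg/L and did not at 1 mg/L (log2 fold change 0.78 at 1 mg/L, adjusted p = 0.54, and 0.83 at 4 mg/L, adjusted p = 0.34). pck2 was 70.2, 65.4 and 60.1 CPM in the controls, 76.4, 104 and 57.6 CPM at 0.1 mg/L, 92.9, 119 and 63.5 CPM at 1 mg/L, and 135, 118 and 71.2 CPM at 4 mg/L. Here the groups overlapped at the lower doses and were separate at 4 mg/L, with replicate 3 just above the highest control (log2 fold change 0.73, SE 0.27, adjusted p = 0.3).

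fbp1a, fbp1b and fbp2 encode fructose bisphosphatases, which reverse the phosphofructokinase step. fbp1b was 106, 85.8 and 87.4 CPM in the controls, 110, 161 and 120 CPM at 0.1 mg/L, 151, 174 and 125 CPM at 1 mg/L, and 106, 144 and 89 CPM at 4 mg/L. Its level was above all controls at 0.1 and 1 mg/L and overlapped them at 4 mg/L, and the edgeR adjusted p at 1 mg/L was 0.28 (log2 fold change 0.69, SE 0.20). fbp1a was the liver gene with the opposite sign, at 93.4 ± 9.48 CPM in the controls and 71.6 ± 16.7 CPM at 4 mg/L (log2 fold change −0.38, adjusted p = 0.43).

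g6pca.1 and g6pca.2 encode glucose 6-phosphatases, which release free glucose at the end of the pathway. g6pca.2 was 55.4, 42 and 77 CPM in the controls, 75.4, 122 and 90.4 CPM at 0.1 mg/L, 98, 96.5 and 106 CPM at 1 mg/L, and 88.1, 140 and 72.1 CPM at 4 mg/L. Its mean was much the same at all 3 doses, at 96 ± 23.9, 100.1 ± 4.97 and 100.01 ± 35.4 CPM (SD, n = 3), with adjusted p of 0.95, 0.37 and 0.25. g6pca.1 was 7.93, 8.15 and 14.5 CPM in the controls, 9.33, 17.1 and 14.7 CPM at 0.1 mg/L, 11.5, 14.9 and 17.9 CPM at 1 mg/L and 14.8, 14.5 and 10.9 CPM at 4 mg/L. Control 3 stood well above the other two controls, and the groups overlapped at every dose.

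**Figure D5:**
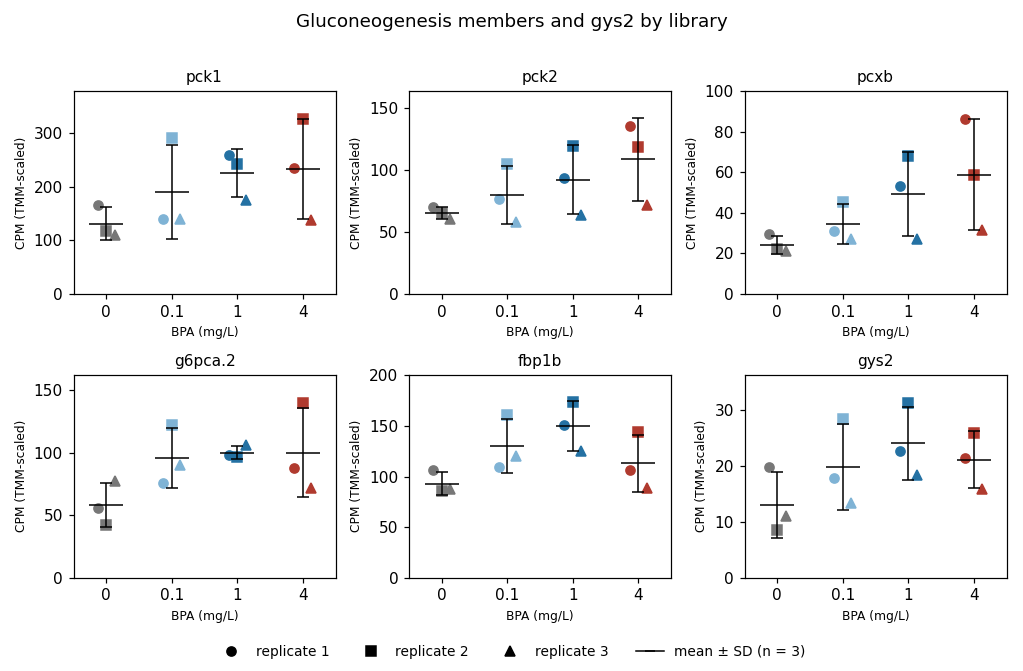
Level (CPM on TMM-scaled library sizes, linear axis from 0) of pck1, pck2, pcxb, g6pca.2, fbp1b and gys2 against BPA dose in mg/L, with single libraries by replicate number and mean ± SD (n = 3) in black. The exposed means are above the control mean in each panel, but libraries within a dose spread widely, as for pcxb at 4 mg/L with 86.1, 58.7 and 31.7 CPM.

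On the storage side, gys2, the liver glycogen synthase, was 19.7, 8.5 and 11 CPM in the controls, 17.7, 28.2 and 13.3 CPM at 0.1 mg/L, 22.6, 31.1 and 18.3 CPM at 1 mg/L, and 21.4, 25.9 and 15.8 CPM at 4 mg/L. Control 1 overlapped every dose, and the log2 fold changes of 0.59, 0.87 and 0.68 had adjusted p from 0.44 to 0.99. pygl, whose product breaks glycogen down, had log2 fold changes of 0.56, 0.92 and 0.98 with rising dose. Its levels were 49.1, 45.9 and 42.3 CPM at 0.1 mg/L and 62, 71.6 and 42 CPM at 1 mg/L, all above the controls.

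gck, the glucokinase that traps glucose in liver, varied widely between libraries of the same dose. It was 1.75, 0.694 and 0.766 CPM in the controls, 7.49, 0.958 and 1.11 CPM at 0.1 mg/L, 6.52, 22.7 and 1.1 CPM at 1 mg/L, and 0.448, 1.18 and 3.05 CPM at 4 mg/L. At 1 mg/L these values correspond to 230, 731 and 22 counts in replicates 1, 2 and 3. The log2 fold change of 3.20 at 1 mg/L had an SE of 1.04 and an adjusted p of 0.34, and the groups overlapped at each dose. hkdc1, another hexokinase family gene, was 5.8, 4.2 and 3.06 CPM in the controls, 12.8, 17.1 and 5.55 CPM at 1 mg/L and 10.5, 11.8 and 8.3 CPM at 4 mg/L (adjusted p = 0.22 at both doses); it is no member and was chosen after its values were seen.

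Hepatocyte markers also lay mostly above 0. Of 24 markers, 23, 23 and 19 lay above 0 at 0.1, 1 and 4 mg/L, with medians of 0.51, 0.82 and 0.53, and edgeR called 0, 3 and 3 of them higher. The edgeR share was 12.5% at both 1 and 4 mg/L, against 0.067% and 0.281% of all tested genes. At these doses limma-voom called 2 and 3 of the markers. DESeq2 called 12 and 10 of them, and 273 and 483 of all 22399 tested genes. For the count of 0 at 0.1 mg/L, 10 had an unadjusted p under 0.05, DESeq2 called 3 and limma-voom 0. The summed level was 6252 to 8311 CPM in the controls, 7984 to 10175 CPM at 0.1 mg/L, 9086 to 10038 CPM at 1 mg/L and 8810 to 9606 CPM at 4 mg/L, with 0 markers at 0 in any library. Relative to that sum, pcxb was higher at 4 mg/L by 0.78 on the log2 scale, pygl by 0.51, pck1 and g6pca.2 by 0.37 each, gys2 by 0.35 and pck2 by 0.28, and the groups overlapped for all 6 genes. These 6 genes were not fixed in advance, and all had a log2 fold change above 0 at 4 mg/L. Left out were fbp1a, the liver gene with the opposite sign, and gck, g6pca.1, pcxa, fbp1b, pfkla and pfklb. The latter had log2 fold changes of 0.47, 0.41, 0.31, 0.28, 0.16 and 0.07 at 4 mg/L. All of these were smaller than those of the 6 genes, and no ratio to the sum was taken for any gene left out. Enterocyte markers, which mark another tissue that expresses gluconeogenic genes, also lay above 0, in 9, 9 and 7 of 9. edgeR called 0, 0 and 2 of them higher (4, 7 and 4 at an unadjusted p under 0.05). limma-voom called 0, 0 and 2, and DESeq2 called 2, 4 and 3. Their summed level was 2077 to 3108 CPM in the controls and 3131 to 4876 CPM at 4 mg/L. Markers of the pronephros and proximal tubule, a further site of gluconeogenesis, summed to 95.8 to 110.3 CPM in the controls and 104 to 158 CPM at 4 mg/L, with 4 of 6 above 0. The part of these cell types in the results was not tested.

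A further liver gene lies outside the symbol rule and was looked up after the table was seen. PKLR, written in capitals in the table and named for the liver and red cell pyruvate kinase, was 159, 196 and 239 CPM in the controls and 55.3, 132 and 114 CPM at 4 mg/L. Every library at 4 mg/L was below every control (log2 fold change −0.98, SE 0.29, adjusted p = 0.2). The sign of its fold change was that of the muscle median and opposite to that of the liver median.

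Shared members lay on both sides of 0, with 7 of 12 above it at 4 mg/L. gapdh, the glyceraldehyde phosphate dehydrogenase often used as a reference gene, was 3986, 6041 and 7239 CPM in the controls and 3311, 3046 and 4242 CPM at 4 mg/L, and control 1 overlapped the exposed libraries (log2 fold change −0.70, SE 0.31, edgeR adjusted p = 0.38). Within a group it varied widely, as from 3015 CPM in replicate 2 to 6257 CPM in replicate 3 at 1 mg/L. gapdhs, its paralogue, was 446, 411 and 349 CPM in the controls and 493, 475 and 448 CPM at 4 mg/L (log2 fold change 0.23, adjusted p = 0.51). pgk1, the phosphoglycerate kinase, was 467 ± 78.1 CPM in the controls and 318 ± 19.8 CPM at 4 mg/L (log2 fold change −0.56, adjusted p = 0.15), and ldhba, a lactate dehydrogenase of the heart type, 950 ± 171 and 686 ± 62.4 CPM (−0.47, adjusted p = 0.36).

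hk1, pfkpa, aldocb and eno2, a hexokinase and the forms of phosphofructokinase, aldolase and enolase known from brain, had log2 fold changes of 0.37, 0.32, 0.35 and 0.29 at 4 mg/L. In the neural list 7 of 9 lay above 0 (median 0.29). edgeR called 0 (1 at an unadjusted p under 0.05, ldhba, which lay below 0) and limma-voom and DESeq2 0 each. Of 10 tested neuron markers 9 lay above 0 at 4 mg/L (median 0.28), with summed levels of 510 to 754 CPM in the controls and 553 to 842 CPM at 4 mg/L. The groups overlapped for all 10 markers. edgeR, limma-voom and DESeq2 called 0 of them, with 0 at an unadjusted p under 0.05 in edgeR. The remaining shared genes, hk2, tpi1a, tpi1b, pgam1a, pgam1b, eno1a and eno1b, ran from −0.32 (tpi1b) to 0.31 (pgam1a), and pfkpb, aldoca, ldhbb and pygb from −0.25 (pfkpb) to 0.32 (pygb).

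At the lower doses, edgeR called 0 members at 1 mg/L (10 at an unadjusted p under 0.05) and 0 at 0.1 mg/L (2 at an unadjusted p under 0.05). limma-voom and DESeq2 called 0 at either dose. In these contrasts edgeR called 0.067% and 0.0% of all tested genes, and DESeq2 called 273 and 22 of the 22399. pgam1a, a phosphoglycerate mutase gene, was above all controls at 1 mg/L, at 89.3, 83.1 and 78 CPM against 64.3, 57.5 and 69.2 CPM (log2 fold change 0.39, SE 0.14, adjusted p = 0.4). pfkpb was below them, at 11.4, 9.29 and 10 CPM against 15.3, 16.2 and 11.1 CPM, save that replicate 1 overlapped control 3.

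Between 1 and 4 mg/L edgeR called 0 members (10 at an unadjusted p under 0.05), limma-voom 0 and DESeq2 2, gpib and pygma. In this contrast edgeR called 0.00893% of all tested genes, and DESeq2 called 43 of the 22399. gpib and pygma had log2 fold changes of −0.80 and −0.83 (adjusted p = 0.19 and 0.33). Replicate numbers were taken to pair these 2 groups. The labels do not state this, and it rests on correlations of same-numbered libraries' deviations, 0.33 to 0.48, in the same data. The fit with the replicate number as a block held all 12 libraries, so the controls shared the effects of the numbers too. Numbers were not taken to pair controls with doses elsewhere, so this fit assumes more than that. In that fit edgeR called gpib (adjusted p = 0.047) and not pygma (0.088), and 15 of all tested genes. 11 of 47 members had every library at 4 mg/L below every library at 1 mg/L, against 5.63% of all tested genes, and 8 of the 11 were muscle isoforms. Between 0.1 and 1 mg/L edgeR, limma-voom and DESeq2 called 0 members, with 0 at an unadjusted p under 0.05 in edgeR. There edgeR called 0.00893% of all tested genes. Asked for any difference among the 4 groups, edgeR called 1 member, gpib (adjusted p = 0.036), and 0.0625% of all tested genes. With single libraries dropped that call stood in 3 of 12 fits, with adjusted p from 0.033 to 0.19.

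The 77 tested accessory genes of the pathway encode regulators, other glycogen enzymes, and glucose and lactate transporters. edgeR called 0 of them in any contrast. At 4 mg/L 39 lay above 0 and 38 below, with a median of 0.00 (0.0031), 20 had an unadjusted p under 0.05, DESeq2 called 9 and limma-voom 0. At 1 mg/L 13 had an unadjusted p under 0.05 and DESeq2 called 4, and at 0.1 mg/L 5 and 0. Between 1 and 4 mg/L 13 had an unadjusted p under 0.05, and between 0.1 and 1 mg/L 1, with 0 called by DESeq2 in either contrast. The following were chosen after their values were seen. Glycogenin primes new glycogen, and its genes gyg1b and gyg1a were lower at 4 mg/L than in any control (log2 fold changes −0.73 and −0.58, adjusted p = 0.12 and 0.15). So was gpd1a, a glycerol phosphate dehydrogenase that links glycolysis to lipid synthesis, at 11.3, 10.3 and 11 CPM against 17.4, 19.6 and 23.3 CPM (−0.88, adjusted p = 0.065). epm2a, named for the glycogen phosphatase laforin, was 1.51, 1.18 and 1.41 CPM against 2.51, 3.57 and 3.98 CPM (−1.28, adjusted p = 0.094). slc37a4a, a glucose 6-phosphate carrier that works with the phosphatase, was 30, 29.8 and 18.9 CPM against 16.7, 14.9 and 14.9 CPM (0.76, adjusted p = 0.15), and its libraries lay above all controls at each of the 3 doses. The same held for slc2a11b, among the transporter genes. It was 16.4, 12.8 and 12.2 CPM at 4 mg/L against 6.94, 7.74 and 9.04 CPM (0.81, edgeR adjusted p = 0.079).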

How the data were processed

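Whole-number counts per gene and library were used as deposited by the authors, not normalized. The submitters' processing notes name build GRCz10 and, among the tools, STAR 2.5.1b and RSEM 1.2.28. How reads shared by duplicated genes were counted is not stated there, so values of near-identical paralogues are uncertain. Groups and replicate numbers came from sample titles. 0 columns belonged to other samples.

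Genes passing filterByExpr (minimum count 10, minimum total 15; 22399 genes) were scaled by TMM. One model of all 12 libraries, with a term for group alone, was fitted in edgeR 4.0.16 (R 4.3.3). Its quasi-likelihood p-values are two-sided and were adjusted by the Benjamini-Hochberg method across the tested genes, with a threshold of 0.05. SE is the log2 fold change divided by the square root of F. Pair ratios used counts plus 0.5. Alternatives were limma-voom (limma 3.58.1), DESeq2 1.42.0, other scalings, filters and sample sets. The pipeline was tested on simulated data.

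Full library values were given for called members, their paired paralogues and 13 muscle or liver genes fixed by name, of which 2 had no row. 1 gene outside the rule is not reported here. pcxb, gapdh, gapdhs, pgam1a and pfkpb were shown by library outside that rule, after their values were seen. The members and lists were chosen with earlier results of these data known. Correlations of same-numbered libraries' deviations were 0.23 to 0.51 between doses. Between control and dose they were 0.21 to 0.38 for number 1 and 0.29 to 0.45 for number 3, but −0.24 to 0.0023 for number 2. Numbers were taken to pair groups only where every pair was above 0.1, which held between doses. Of 88 accessory symbols, 8 had no row and 1 (slc37a4b) had several and was left out. Precision is limited by 3 pools per group.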

Additional observations from a re-analysis of the deposited data

How the results depend on the processing

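The count of members called at 4 mg/L against control was 3. It was 12 in DESeq2 and 15 with the replicate block, settings that called 483 and 1094 of the 22399 tested genes against 63, so calls rose over all genes. It was 1 with only the 2 groups compared, 1 at an adjusted p under 0.01, 0 from the libraries numbered 1 and 2, and 1 to 3 when 1 library was left out (1 without any control, without 0.1 mg/L replicate 2 or without 4 mg/L replicate 1 or 3). Control and dose libraries share a number only; deviations of each control correlated best with its own number at 4 mg/L for 2 of 3 numbers. Between 4 and 1 mg/L the count of 0 became 2 in DESeq2 and 1 with the replicate block. These settings called 43 and 15 of all tested genes there, against 2. For any difference among the 4 groups the count of 1 became 7 in DESeq2 and 4 with the replicate block. In that test these settings called 376 and 310 of all tested genes against 14, so calls again rose over all genes. The count of members was 0 at an adjusted p under 0.01, 0 from the libraries numbered 1 and 2 and 0 to 1 with 1 library left out. No other count of members changed, and RLE or upper-quartile scaling and the filters changed none. The muscle median at 4 mg/L was −0.43 from the libraries numbered 1 and 2 and −0.74 to −0.44 with 1 library left out, and the liver median was 0.75 and 0.31 to 0.75. The cause was not tested. The leave-out ranges of the pair ratios, added after seeing the data, kept their sign except for fbp2 over fbp1b (−0.41 to 0.20) and hk2 over gck (−1.01 to 0.57).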
